A study of Mus musculus with 14 samples.

Results

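The cytoplasmic ribosomal protein genes encode the proteins of the 40S and 60S subunits of the cytosolic ribosome. They were taken from the table of 27179 genes by official mouse symbol: Rpl or Rps followed by a number and at most a short suffix, together with Rplp0, Rplp1, Rplp2 and Rpsa, and only where RefSeq lists the gene as protein-coding. This gave 84 genes, 32 of the small subunit and 52 of the large subunit, the latter including the 3 proteins of the P stalk. Rpl6l and Rps4l fit the naming pattern but are pseudogenes in RefSeq and were not members. Rpl32l is protein-coding in RefSeq and a processed pseudogene in GENCODE, and was kept under the rule.

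The study sequenced polyadenylated RNA of regulatory T cells (Tregs), the Foxp3-expressing T cells that restrain immune responses, sorted by FoxP3-YFP from mice with MC38 tumors of the flank, taken at endpoint. MC38 is a colon carcinoma line of the mouse. All mice were B6 and carried FoxP3Cre-YFP, which expresses Cre recombinase and YFP in Foxp3-expressing cells; the WT-labelled mice had the IL23RWT allele and the Flox-labelled mice the IL23RFlox allele, which Cre is meant to delete in Tregs. Spleen and tumor (tumor-infiltrating, TIL) cells gave 4 WT-labelled and 3 Flox-labelled libraries each, 14 in all. The question the series states is the Flox against WT difference within each tissue. The labels give no age and do not say that replicates came from separate mice, so the p-values below measure only the spread between these libraries, which may be technical.

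Libraries held 4859099 to 10333892 counts over genes and detected 13657 to 15312 genes. The labels were checked first. Summed counts of Il23r, the targeted gene, were 17 in the Flox-labelled and 2 in the WT-labelled tumor libraries (two-sided exact permutation p = 0.0286, the smallest 3 against 4 can give), and 10 and 2 in spleen (exact permutation p = 0.371). Summed Il23r counts were thus higher with the Flox label, but they were few and do not separate parts of the gene. Whether Cre deleted the allele could not be decided from them. The names Flox-labelled and WT-labelled refer to the sample labels alone. CPM are a gene's counts relative to the counts of its library, on the usual CPM scale, with totals adjusted as given under processing. Xist, an RNA of the inactive X chromosome, was at 56.7 to 530 CPM in every WT-labelled library and at 0.5 to 3.3 CPM in every Flox-labelled one. The Y-linked gene Ddx3y stood at 281 to 656 CPM in Flox-labelled libraries and at no more than 0.6 CPM in WT-labelled ones apart from replicate 2, which held 29.2 CPM in spleen and 126 CPM in tumor. The genotype label and this difference cannot be told apart, and 4 members (Rpl10, Rpl36a, Rpl39 and Rps4x) lie on the X chromosome. Summed markers of T cells and Tregs were at 3622 to 4795 CPM in spleen and 4825 to 8751 CPM in tumor. Summed B cell markers were at 810 to 2667 CPM in WT-labelled and 457 to 670 CPM in Flox-labelled spleen libraries, and at 46.3 to 252 and 43.6 to 53.9 CPM in the tumor. In these bulk samples, fewer cells of a type and less RNA per cell cannot be told apart.

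Most ribosomal proteins are present in the same number per ribosome, assembled on ribosomal RNA, and their mRNAs are among the most abundant of a growing cell. Those mRNAs typically start with a C followed by a stretch of pyrimidines, the 5′ terminal oligopyrimidine (TOP) motif, through which the kinase mTORC1 and the RNA-binding protein LARP1 control their translation and stability. In T cells, ribosome production rises on activation together with MYC. Several members also act outside the ribosome: free Rpl5 and Rpl11, with 5S RNA, bind the p53 inhibitor Mdm2.

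Promoter sequence was available from RefSeq (GRCm38.p6) for 64 of the 84 members, in 76 windows from 250 bases before to 50 bases after a transcription start. A run of at least 8 pyrimidines within 20 bases of the start was found on the gene strand in 31 of 64 members (48.4%) and in 18.3% of the 18458 genes with a window; for runs of at least 10 the shares were 37.5% and 8.47%. The letters CTTTCC lay within 20 bases of the start on the gene strand in 11 members (17.2%) and in 2.22% of all genes. CCGGAAG, the core of sites for ETS factors such as GABPA, was found on either strand of the whole window in 26 members (40.6%) against 12.7% of all genes. AAGATGGC, a YY1 core, was found in 9.38% against 3.53%, GGGCGG, a site of SP and KLF factors, in 60.9% against 48.7%, and TATAAA in 12.5% against 14.5%, each on both strands. On the gene strand alone the order of these last motifs turned, with GGGCGG in 29.7% against 33.1% and TATAAA in 10.9% against 9.49%. CTTTCC and the reverse of CCGGAAG can overlap each other and the pyrimidine run. Runs of C and T at the start were thus found in a larger share of members than of all genes. These counts describe letters in a window and were not tested.

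The windows of 8 members that the results below turn on are shown from 100 bases before the start to 20 bases after it, 5′ to 3′ on the gene strand. Capitals mark CCGGAAG or its reverse complement and the longest run of at least 6 pyrimidines within 20 bases of the start. Rps18 (chr17:33955646-33955765, minus strand), Rpl15 (chr14:18270967-18271086, minus) and Rps27 (chr3:90213629-90213748, minus) were among the members lowest in tumor relative to spleen, and Rps27l (chr9:66945986-66946105, plus) is the member called higher there. Rps6 (chr4:86857348-86857467, minus) is the S6 kinase substrate of the 40S subunit, Rpl4 (chr9:64173287-64173406, plus) had the most counts, Rplp2 (chr7:141447551-141447670, plus) belongs to the stalk, and Rps2 (chr17:24719963-24720082, plus) varied most between libraries.
Rps18: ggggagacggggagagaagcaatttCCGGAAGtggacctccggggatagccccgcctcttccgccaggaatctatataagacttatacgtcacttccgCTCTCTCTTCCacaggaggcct
Rpl15: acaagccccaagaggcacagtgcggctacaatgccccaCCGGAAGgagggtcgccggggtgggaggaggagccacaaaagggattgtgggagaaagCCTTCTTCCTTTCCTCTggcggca
Rps27: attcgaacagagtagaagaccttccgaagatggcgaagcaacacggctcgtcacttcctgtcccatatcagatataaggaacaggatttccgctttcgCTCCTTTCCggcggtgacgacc
Rps27l: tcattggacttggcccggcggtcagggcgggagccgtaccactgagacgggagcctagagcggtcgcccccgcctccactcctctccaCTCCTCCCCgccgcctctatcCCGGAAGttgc
Rps6: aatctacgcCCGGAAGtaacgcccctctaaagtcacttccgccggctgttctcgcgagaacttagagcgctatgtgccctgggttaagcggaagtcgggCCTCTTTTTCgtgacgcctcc
Rpl4: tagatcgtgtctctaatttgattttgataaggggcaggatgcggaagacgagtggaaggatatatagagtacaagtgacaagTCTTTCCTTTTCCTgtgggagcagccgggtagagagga
Rplp2: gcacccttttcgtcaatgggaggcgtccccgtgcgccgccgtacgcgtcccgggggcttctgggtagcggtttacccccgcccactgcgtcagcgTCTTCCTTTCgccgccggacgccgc
Rps2: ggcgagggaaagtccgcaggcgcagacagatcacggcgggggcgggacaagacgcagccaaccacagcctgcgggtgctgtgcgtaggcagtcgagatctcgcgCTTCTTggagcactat
The run that spans the start was 17 bases long in Rpl15, 11 in Rps18, 10 in Rps6 and Rplp2 and 9 in Rps27. In Rpl4 a run of 14 and in Rps27l a run of 9 ended before the start, and in Rps27l CCGGAAG lay just after it. A second RefSeq start of Rps27l (chr9:66946313-66946432, not shown) had a longest run of 4 and no CCGGAAG. Rps2 had a run of 6 after the start.

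The members took a small share of every library, and a smaller mean share in tumor Tregs than in splenic ones. The size of the share holds for these counts only, since many member sequences recur in other genes and the handling of reads that fit several places is not stated. Their summed counts were 0.854%, 1.12%, 0.694% and 0.483% of the library in the 4 WT-labelled spleen libraries and 0.557%, 0.729% and 0.674% in the 3 Flox-labelled ones. In the tumor they were 0.389%, 0.503%, 0.385% and 0.479% in the WT-labelled and 0.531%, 0.490% and 0.510% in the Flox-labelled libraries. The spleen mean was 0.730% ± 0.209 (SD, n = 7) and the tumor mean 0.470% ± 0.0587 (SD, n = 7). The ratio was 0.643 (log2 -0.64, against a within-group SD of 0.315 on that scale, pooled over the 4 groups). Shares use unadjusted totals, and TMM factors (given under processing) were 0.7446 to 0.9812 in tumor and 1.0268 to 1.2554 in spleen. A gene with no TMM-adjusted difference thus also takes a smaller share of tumor libraries. In the TMM-adjusted test below, the members' median log2 fold change was -0.40. The 2 tissues overlapped through 1 spleen library, WT-labelled replicate 4, which lay below 4 of the 7 tumor libraries; the other 6 spleen libraries lay above every tumor library. The Flox-labelled mean was 0.83 times the WT-labelled mean in spleen and 1.16 times in tumor (log2 -0.27 and 0.22). Both log2 ratios were smaller than the pooled SD, but the spread was unequal. In spleen the SD of the share was 0.269 with the WT label and 0.0879 with the Flox label. In tumor the means were 0.439% ± 0.0607 and 0.510% ± 0.0209 (SD), so the pooled SD overstates the tumor spread. The 2 tumor groups overlapped, and their difference was not tested. Without spleen WT-labelled replicate 2, the library with the highest share, the spleen ratio was -0.05 on the log2 scale and the tumor to spleen ratio -0.50.

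**Figure D1:**
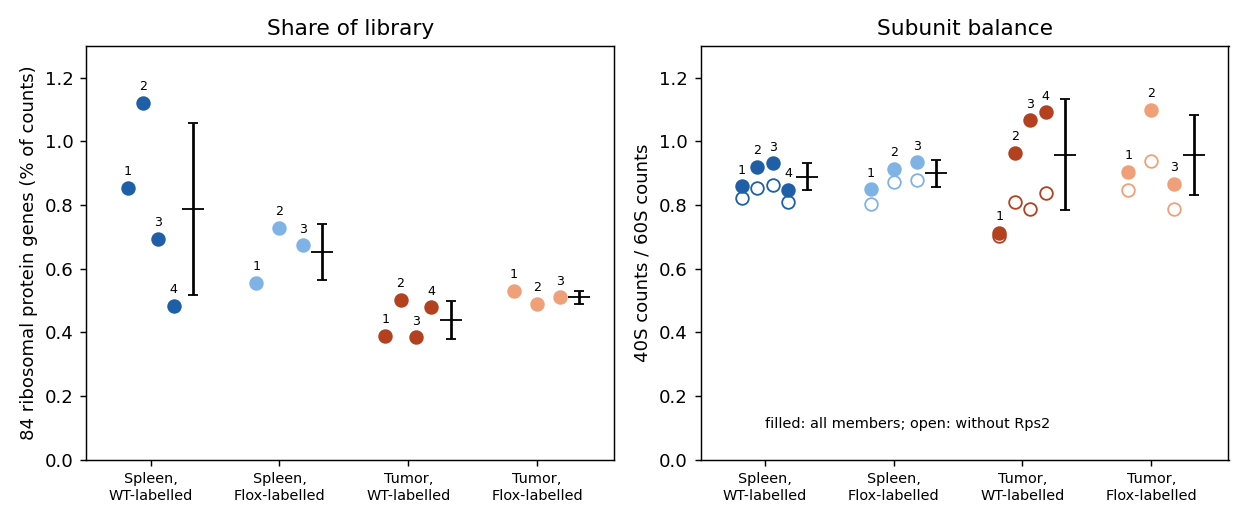
Left, summed counts of the 84 ribosomal protein genes as percent of all counts of the library; right, counts of 40S genes divided by counts of 60S genes, with open circles leaving out Rps2. Points are libraries with their replicate number, bars the group mean ± SD; 6 of 7 spleen libraries lie above the tumor libraries in the left panel, and the tumor libraries are more scattered than the spleen libraries in the right panel.

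Other measures also differed between libraries, but not always along with the share. The library with the highest share, spleen WT-labelled replicate 2, also had the highest summed B cell markers (2667 CPM), erythroid markers (334 CPM) and macrophage markers (306 CPM), and the highest share of mitochondrially encoded genes (2.06%). The library with the lowest share in spleen, WT-labelled replicate 4, had the fewest counts (4859099) and the lowest B cell sum of its group (810 CPM). All 3 Flox-labelled spleen libraries had lower B cell sums (457 to 670 CPM) but larger shares (0.557% to 0.729%). Mitochondrially encoded genes took 1.20% to 2.06% of spleen and 0.781% to 1.13% of tumor libraries, and erythroid markers summed to 29.8 to 334 CPM in spleen and 0.119 to 10.8 CPM in tumor. B cell markers fell in tumor in 7 of 8 tested genes, with Pax5 at 0 in all tumor libraries and Cd22 at 0 in the Flox-labelled ones. The part of B cells, erythroid cells or depth in the share was not tested. The 78 mitochondrial ribosomal protein genes, which serve a separate ribosome, took 0.0871% ± 0.0114 (SD, n = 7) of spleen and 0.0774% ± 0.0321 (SD, n = 7) of tumor libraries.

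The balance of the subunits was steadier in spleen than in tumor. Counts of 40S genes were 0.847 to 0.935 times those of 60S genes in the 7 spleen libraries (mean 0.894 ± 0.0397) and 0.712 to 1.10 times in the 7 tumor libraries (0.958 ± 0.142). Without Rps2, which helps form the mRNA entry region of the 40S subunit, the ratios were 0.804 to 0.878 in spleen and 0.704 to 0.938 in tumor. Leaving out Rps2 was chosen after its values were seen.

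Counts differed widely among members. The 5 members with the most counts (Rpl4, Rps3, Rps2, Rps3a1 and Rps25) held 26.9% of the 748261 member counts, 21 members averaged at least 100 CPM and 10 averaged under 10 CPM, around a median of 43.3 CPM. Rpl4, a large-subunit protein that lines the exit tunnel, led with 8.37% of the member counts, at 701, 700, 459 and 442 CPM in the WT-labelled and 500, 663 and 433 CPM in the Flox-labelled spleen libraries. In the tumor it was at 357, 347, 309 and 508 CPM in the WT-labelled and at 309, 424 and 751 CPM in the Flox-labelled libraries, so the tissues overlapped. Rps3, at the mRNA entry of the 40S subunit, ranged from 226 to 534 CPM and held 5.95%; Rps2 ranged from 24.8 to 716 CPM and held 4.48%. Per kilobase of the shortest complete GENCODE principal transcript, Rps25 (385 CPM per kb), Rpl4 (328), Rplp1 (327) and Rps3a1 (272) were highest. This per-length scale depends on the transcript chosen, which for Rps20 is 3706 bases long.

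A core protein of the large subunit had almost no counts. Rpl39 had 8 counts in all 14 libraries and its testis-associated paralog Rpl39l had 27, and neither passed the filter on low counts. Of the 50-base windows of Rpl39, 16.5% occur in other genes, a smaller share than in most members. How reads that fit several places were handled is not stated, and the part of such sharing in the few counts was not tested. Few counts alone do not show that the mRNA was absent. Rpl3l, a paralog of Rpl3 made mainly in muscle, and Rpl10l, a retrogene copy of Rpl10 active in testis, had 0 counts; 3 counts, the limit that a 0 allows, are 0.290 to 0.617 CPM in a single library and 0.0245 CPM over all 14, counting error only. Their parents were present, Rpl3 at 19.9 to 63.0 CPM and Rpl10 at 29.2 to 112 CPM. The lowest members that were tested were Rpl13 (0.4 to 6.0 CPM), Rpl35a (3.8 to 9.7 CPM) and Rpl27 (3.2 to 10.4 CPM). For comparison, 21 other genes with TOP mRNAs, most of them translation factors, together took 6130 to 11130 CPM of each library. Eef1a1 alone held a large part of this sum. Its average log2 CPM was 12.1, against 9.14 for Rack1, the next of the 21, and 8.95 for Rpl4.

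Many member sequences recur elsewhere in the genome, because ribosomal protein mRNAs have given rise to many retrocopies. In 52 of the 84 members at least 50% of the 50-base windows of the transcript also occurred in a transcript of another annotated gene, in 25 members 10% to 50% did, and in 7 members under 10%. The median level was 51.0 CPM per kb in the first class, 68.6 in the second and 47.4 in the third, and across the 84 members Spearman's rho between level per kb and shared share was -0.09, given as a description. Rpl13, at 2.42 CPM on average, shared 80.3% of its windows, and Rps3, with the second most counts, shared 2.96%. No source used here says how reads of such windows were assigned, so levels of members with near-identical copies are uncertain. Counts did reach copies: the retrogene Rps27rt held 17839 counts against 4962 for Rps27, Rpl37rt 9743 against 5278 for Rpl37, and Rpl34-ps1 9348 against 7154 for Rpl34.

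Across the 14 libraries most members went up and down together. The median Pearson's r between pairs of the 80 tested members was 0.59, both over all libraries and after removing group means, and 92.8% of pairs were positive; it was 0.00 for pairs of all 12008 genes tested and 0.04 for the 77 tested mitochondrial ribosomal protein genes. These correlations share libraries and depth and are descriptions. Against the summed other members, 53 of 80 had r of at least 0.8, led by the stalk protein Rplp1 at 0.98. Rplp1 was at 237, 311, 176 and 113 CPM in the WT-labelled and 147, 170 and 167 CPM in the Flox-labelled spleen libraries. In the tumor it was at 114, 128, 88.7 and 135 CPM and at 149, 115 and 130 CPM. Its highest value lay in spleen WT-labelled replicate 2 and its lowest in tumor WT-labelled replicate 3, the libraries with the highest and the lowest share.

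**Figure D2:**
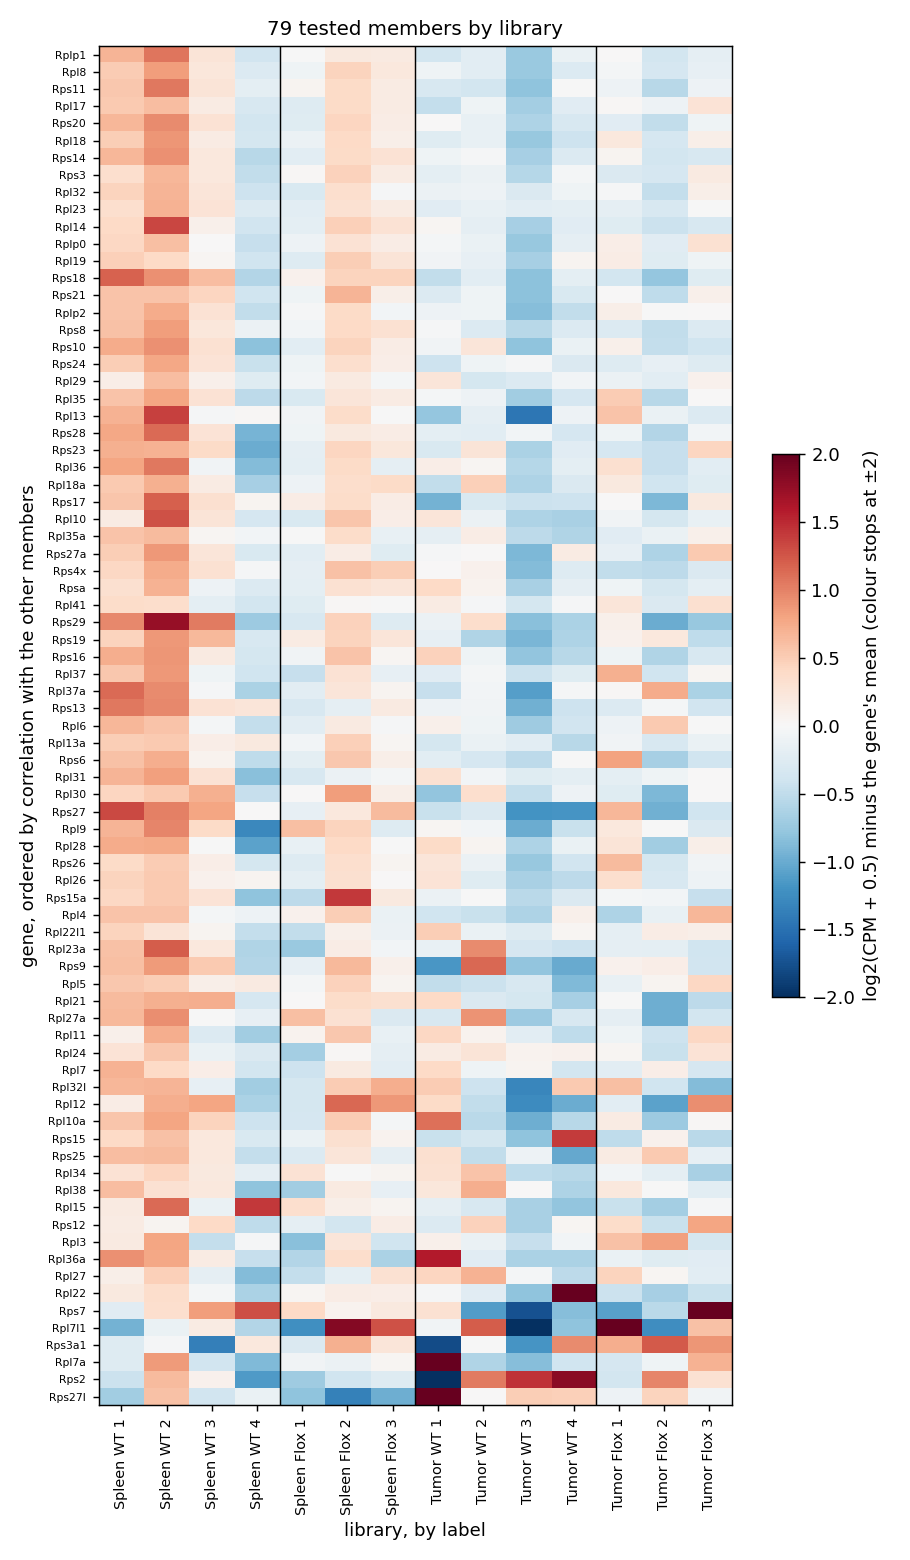
Level of 79 of the 80 tested members in each library, as log2(CPM + 0.5) minus the gene's mean over the 14 libraries, with genes ordered from the highest to the lowest correlation with the other members. The upper rows share the same column pattern, highest in spleen WT-labelled replicate 2, and the lowest rows (Rps27l, Rps2, Rpl7a, Rps3a1, Rpl7l1, Rps7 and Rpl22) do not follow it.

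There were 7 members with r under 0.5. They were Rps27l (-0.35), Rps2 (0.09), Rpl7a (0.18), Rps3a1 (0.22), Rpl7l1 (0.35), Rps7 (0.35) and Rpl22 (0.36). Most of them also had the largest spread within groups: the median member had a within-group SD of 0.469 on the log2 scale, and Rps2 had 1.41, Rpl7l1 1.35, Rpl7a 0.907, Rps7 0.895 and Rps3a1 0.826. Rps2 was at 152, 316, 216 and 92.7 CPM in the WT-labelled and 124, 155 and 171 CPM in the Flox-labelled spleen libraries. In the tumor it was at 24.8, 422, 556 and 716 CPM in the WT-labelled and 159, 404 and 252 CPM in the Flox-labelled libraries, so its lowest and highest values both lay in the WT-labelled tumor group. Rps3a1, a 40S protein near the exit side of the mRNA channel, was at 65.0, 225, 99.9 and 439 CPM in the WT-labelled and 374, 530 and 421 CPM in the Flox-labelled tumor libraries. Rps7, a 40S protein, was at 9.3 to 40.2 CPM in 6 tumor libraries and at 140 CPM in Flox-labelled replicate 3. The share of 50-base windows found in other genes was 79.0% in Rps2, 71.0% in Rps3a1, 70.3% in Rps7 and 81.2% in Rpl7a. It was lower in Rpl22 (24.5%), Rps27l (22.4%) and Rpl7l1 (12.2%), although Rpl7l1 also had a large SD. A high share also occurred with a high r, as in Rps10 (92.4%, r = 0.93). The part of such sharing in the spread of these 7 members was not tested.

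**Figure D3:**
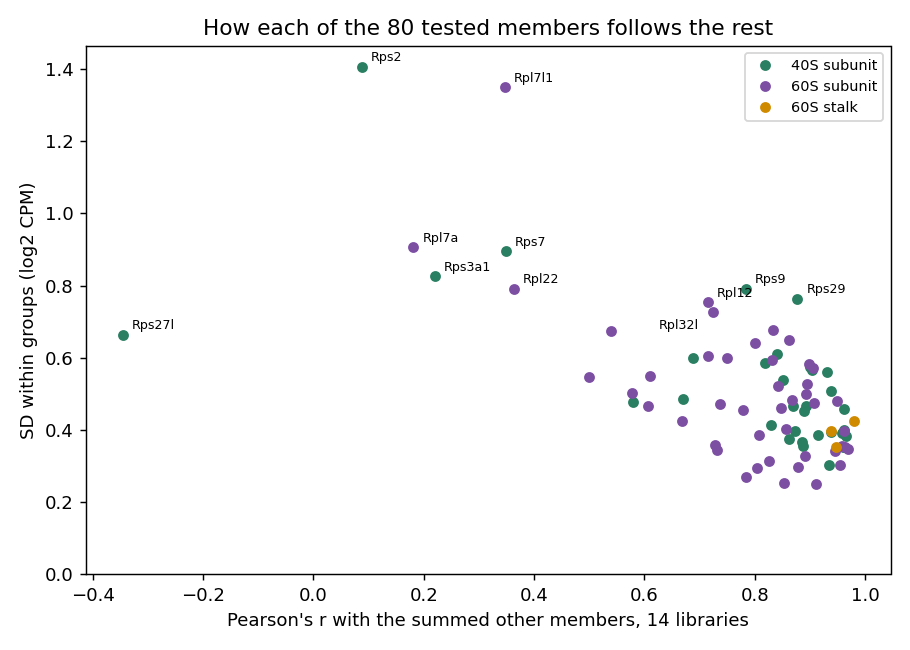
For each of the 80 tested members, Pearson's r of its log2 level with the summed other members over 14 libraries (horizontal) and its SD within groups on the log2 scale (vertical), coloured by subunit. Most members sit at r of 0.8 or more with an SD near 0.469, and Rps2 and Rpl7l1 have the largest SDs.

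In the comparison of tumor with spleen, members lay mostly below 0 but few passed the test. The test was edgeR's quasi-likelihood test with the genotype label as a covariate and Benjamini-Hochberg adjustment over 12008 genes, at an adjusted p under 0.05; 80 of the 84 members passed the filter on low counts. Of these, 2 were called (2.5%), against 22.5% of all genes tested: 1 was higher (12.3% of all genes were) and 1 lower (10.2%). DESeq2 called 1 member higher and 12 lower, and 30.6% of all genes. An unadjusted p under 0.05 was reached by 14 members and by 35.6% of all genes. The log2 fold change was negative for 67 of 80 members and for 49.3% of all genes, with a median of -0.40 among members and 0.03 among all genes. The median was -0.51 for the 40S genes (28 of 32 negative), -0.33 for the 60S genes (36 of 45) and -0.43 for the 3 stalk genes. Libraries of the 2 tissues did not overlap for 1 member, Rpl13a, which was lower in tumor (3.48% of all genes did not overlap and were lower, 5.91% were higher, 9.39% in all). Rpl13a, the 60S protein that also takes part in the GAIT translation-silencing complex, was at 52.5 to 78.4 CPM in spleen and 36.9 to 51.7 CPM in tumor, with a log2 fold change of -0.52 ± 0.26 (SE) and an adjusted p of 0.163 in edgeR.

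Rps27l (NCBI Gene 67941), a paralog of Rps27 known as a p53 target, was the member called higher. It was at 7.99, 19.98, 10.1 and 12.03 CPM in the WT-labelled and 7.3, 4.9 and 6.4 CPM in the Flox-labelled spleen libraries. In the tumor it was at 77.0, 13.2, 18.9 and 18.5 CPM in the WT-labelled and 12.2, 18.2 and 12.6 CPM in the Flox-labelled libraries. All tumor libraries lay above 6 of the 7 spleen libraries, while spleen WT-labelled replicate 2 reached into the tumor range. The log2 fold change was 1.29 ± 0.42 (SE; edgeR adjusted p = 0.0399). Without tumor WT-labelled replicate 1, the highest library, it was 0.80 with an adjusted p of 0.0971, and the call held in 4 of 14 fits that each left out 1 library (Rps27l adjusted p 0.0258 to 0.0971).

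Rps18 (NCBI Gene 20084), a protein of the 40S head, was the member called lower. It was at 98.1, 81.6, 66.6 and 28.6 CPM in the WT-labelled and 45.6, 58.6 and 59.0 CPM in the Flox-labelled spleen libraries. In the tumor it was at 30.5, 37.3, 24.2 and 37.5 CPM and at 33.3, 24.9 and 36.4 CPM. Spleen WT-labelled replicate 4 fell among the tumor libraries and the other 6 spleen libraries lay above all of them. The log2 fold change was -0.96 ± 0.32 (SE; edgeR adjusted p = 0.0461), and the call held in 2 of 14 fits that each left out 1 library, with adjusted p from 0.0201 to 0.0959. With the replicate number as a block neither gene passed, at an adjusted p of 0.154 for Rps27l and 0.141 for Rps18.

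The next members by p did not pass. They included Rpl15 (log2 fold change -0.96 ± 0.34, adjusted p = 0.0556) and Rps27 (-1.06 ± 0.40, adjusted p = 0.0759). Rpl15, a protein of the 60S core, was at 25.2 to 74.5 CPM in spleen and 15.7 to 27.2 CPM in tumor. Its ranges overlapped only at the low end of spleen. Rps2 had a positive log2 fold change of 1.02 ± 0.52 that did not pass (adjusted p = 0.178). Without tumor WT-labelled replicate 1, its lowest library, Rps2 was called higher and was the only member called. Of the stalk proteins, which recruit translation GTPases, Rplp1 had -0.61 ± 0.28 (adjusted p = 0.131), Rplp2 -0.43 ± 0.29 (adjusted p = 0.306) and Rplp0 -0.27 ± 0.26 (adjusted p = 0.490).

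**Figure D4:**
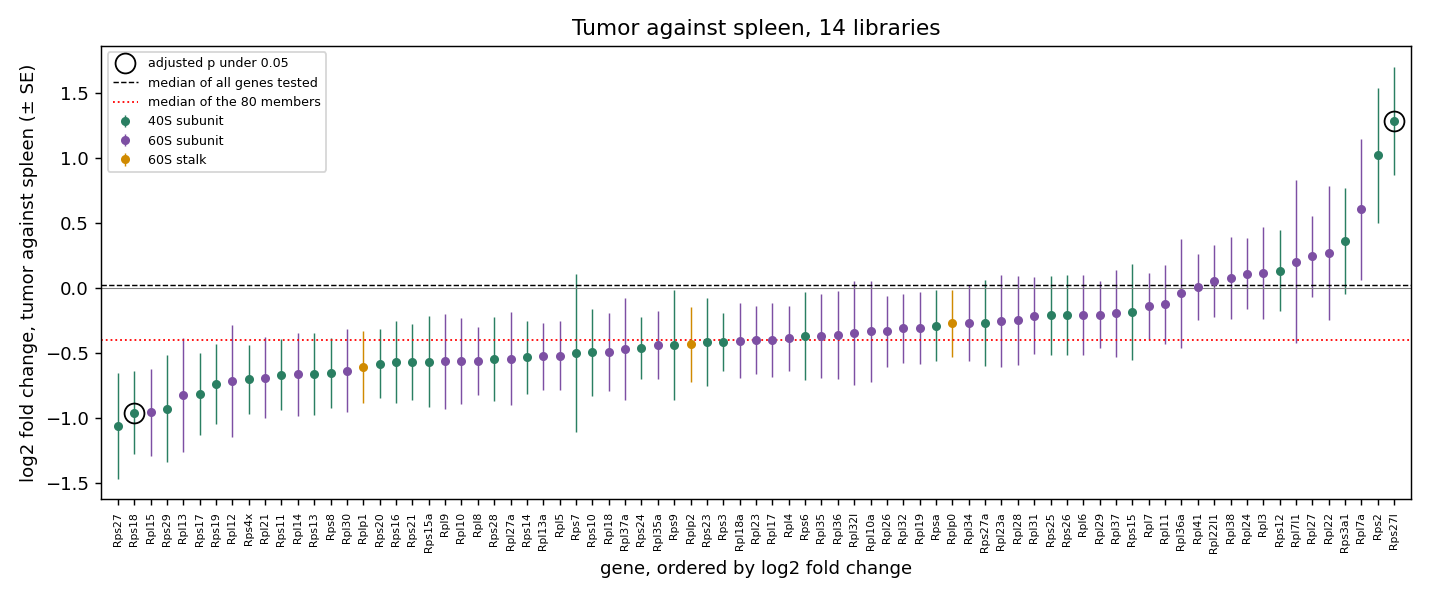
Log2 fold change of tumor against spleen with its SE for 79 of the 80 tested members, ordered by size and coloured by subunit; circles mark the 2 with an adjusted p under 0.05. The members' median (dotted, -0.40) lies below that of all genes tested (dashed, 0.03), and Rps27l and Rps2 stand at the high end.

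Several members also have roles outside the ribosome. Rpl5 was at 114 to 170 CPM in spleen and 63.6 to 156 CPM in tumor (log2 fold change -0.52 ± 0.27, adjusted p = 0.181), and its partner Rpl11 was at 6.4 to 18.1 and 7.4 to 14.5 CPM (-0.12 ± 0.31, adjusted p = 0.810). Rps6 was at 33.7 to 80.2 CPM in spleen and 30.0 to 84.7 CPM in tumor (-0.37 ± 0.34, adjusted p = 0.473). Rpsa, the 40S protein also described as a laminin receptor precursor, was at 84.6 to 166 and 65.2 to 135 CPM (-0.29 ± 0.27, adjusted p = 0.484). Rps27a, made as a fusion with ubiquitin, was at 27.6 to 63.1 and 18.3 to 49.5 CPM (-0.27 ± 0.33, adjusted p = 0.601). None of these 5 passed the test, and the tissues overlapped for each.

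The count ratio of Rps27l to its paralog Rps27 was higher in most tumor libraries than in spleen. Rps27 was at 81.2, 65.5, 55.8 and 32.5 CPM in the WT-labelled and 28.7, 37.3 and 49.9 CPM in the Flox-labelled spleen libraries. In the tumor it was at 23.6, 26.1, 13.8 and 13.9 CPM and at 51.2, 16.3 and 24.3 CPM. The ratio was 0.0984 to 0.370 in spleen. It was 0.506 to 3.26 in 6 tumor libraries and 0.239 in the remaining one, Flox-labelled replicate 1, which lies within the spleen range. Nearly all of Rps27 (98.6% of its 50-base windows) recurs in other annotated genes, and with the counts of its retrogene Rps27rt added to Rps27 the ratio was 0.0220 to 0.0765 in spleen and 0.0549 to 0.767 in tumor. Rps27rt alone had a log2 fold change of -0.85 ± 0.29 (adjusted p = 0.0459), and Rps27 with Rps27rt -0.90 ± 0.29 (adjusted p = 0.0402). Summing copies with their parents was chosen after the data were seen.

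The ratio of Rpl22l1 to Rpl22, paralogs of which Rpl22 is known to repress Rpl22l1, was 0.223 to 0.385 in spleen and 0.345 to 0.575 in 6 tumor libraries. In tumor WT-labelled replicate 4 it was 0.0632, where Rpl22 was at 410 CPM against 44.1 to 98.5 CPM in all other libraries. Rpl22l1 was at 17.6 to 34.2 CPM in spleen and 20.8 to 35.5 CPM in tumor (log2 fold change 0.06 ± 0.28, adjusted p = 0.912). Rpl7, a 60S protein, was at 127 to 277 CPM over all libraries and Rpl7l1 at 3.2 to 78.9 CPM, with no order by tissue. The X-linked Rps4x was at 5.6 to 18.2 CPM, and its copy Rps4l, a pseudogene in RefSeq, had 24 counts in all.

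**Figure D5:**
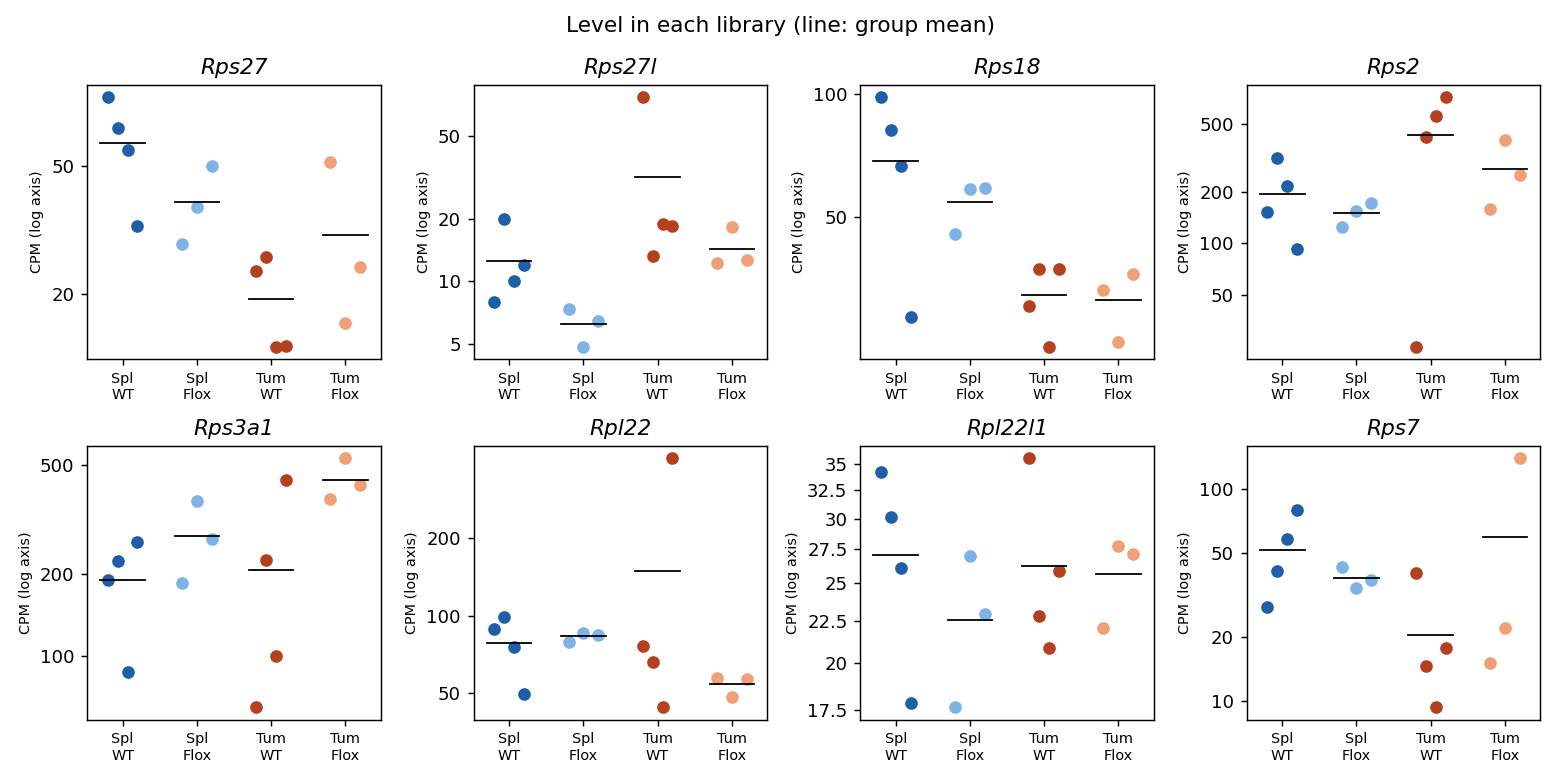
Level in CPM (log axis) of 8 members in each library; points are libraries in replicate order, short lines the arithmetic group means; Spl is spleen, Tum tumor, and WT and Flox are the genotype labels. Rps27l is higher and Rps18 lower in most tumor libraries, while Rpl22 and Rps7 each have 1 tumor library far above the rest.

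Within the spleen, no member passed the test between Flox-labelled and WT-labelled Tregs. edgeR called 0 of 80 members and 0% of 10935 genes tested; an unadjusted p under 0.05 was reached by 0 members and 6.86% of genes, and DESeq2 called 124 genes and no member. The log2 fold change was negative for 71 of 80 members and 53.7% of all genes, with medians of -0.23 and -0.06. Without spleen WT-labelled replicate 2 the members' median was -0.06. The groups did not overlap for 2 members, both lower, against 3.13% of genes lower, 2.75% higher and 5.88% in all. These were Rps27l, at 4.9 to 7.3 CPM with the Flox label and from 8.0 CPM upward with the WT label, and Rps13, at 19.9 to 28.3 and 29.5 to 52.5 CPM. Rps27l had a log2 fold change of -1.01 ± 0.49 (adjusted p = 0.674) and Rps13, a 40S protein, -0.78 ± 0.45 (adjusted p = 0.708). Next by p were Rpl7l1 (1.43 ± 0.72, adjusted p = 0.674), Rps29 (-1.01 ± 0.64, adjusted p = 0.736) and the X-linked Rpl36a (-0.71 ± 0.53, adjusted p = 0.773). Summed B cell markers were also lower in the Flox-labelled spleen libraries (457 to 670 against 810 to 2667 CPM), and their part was not tested.

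Within the tumor, no member passed either. edgeR called 0 of 80 members and 0% of 10777 genes; an unadjusted p under 0.05 was reached by 0 members and 8.08% of genes, and DESeq2 called 266 genes and no member. The log2 fold change was negative for 31 members, against 53.2% of all genes, and positive for 49, with medians of 0.05 among members and -0.06 among all genes. The members' median was -0.0068 without tumor WT-labelled replicate 3. The groups did not overlap for 2 members, both higher in the Flox-labelled libraries (2.47% of genes were higher, 2.53% lower, 5% in all). These were Rpl5, at 106 to 156 against 63.6 to 93.3 CPM (0.63 ± 0.50, adjusted p = 0.722), and Rplp2, at 102.6 to 112 against 57.3 to 97.3 CPM (0.38 ± 0.50, adjusted p = 0.850). The smallest p belonged to Rps7 (1.52 ± 0.92, adjusted p = 0.629), which was -0.10 without Flox-labelled replicate 3. It was followed by Rpl22 (-1.44 ± 0.90, adjusted p = 0.637), Rps3a1 (1.10 ± 0.69, adjusted p = 0.640), Rps27l (-1.14 ± 0.74, adjusted p = 0.648) and Rpl13 (0.81 ± 0.58, adjusted p = 0.684). The X-linked Rps4x and Rpl10 had log2 fold changes of -0.23 ± 0.37 and 0.05 ± 0.50 in tumor and -0.05 ± 0.43 and -0.31 ± 0.51 in spleen. The median SE over members was 0.495 in tumor and 0.448 in spleen. Differences well above that size also did not pass, such as Rps7 at 1.52 in tumor and Rpl7l1 at 1.43 in spleen. Differences several times the SE could thus have been missed with these libraries.

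The difference between the 2 genotype contrasts was tested as an interaction. edgeR called 0 of 80 members and 0% of 12008 genes, with 0 members and 10.8% of genes at an unadjusted p under 0.05, and DESeq2 called 157 genes and no member. The difference, tumor minus spleen, was negative for 16 members and positive for 64, against 49.4% of all genes negative, with a median of 0.30 among members and 0.02 among all genes. Smallest by p were Rps7 (1.98 ± 1.08, adjusted p = 0.524), Rpl13 (1.44 ± 0.81, adjusted p = 0.534), Rps27 (1.27 ± 0.74, adjusted p = 0.554), Rpl22 (-1.55 ± 0.96, adjusted p = 0.570) and Rpl5 (0.82 ± 0.51, adjusted p = 0.576). No member's genotype difference was therefore shown to depend on tissue.

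Genes that make or control ribosomes were examined beside the members in the tumor against spleen comparison. Of 35 ribosome biogenesis factors, 9 fell and none rose (25.7% of the list, against 10.2% of all genes called lower), with a median log2 fold change of -0.68. They included Heatr1 (-3.46 ± 0.63, adjusted p = 0.00171) and Polr1b (-3.93 ± 1.02, adjusted p = 0.0132), which act in transcription of ribosomal RNA, and Nob1, Rpf2, Nip7 and Grwd1 (-1.94 to -1.57). In the list on control by mTORC1, LARP1 and MYC, 3 of 19 tested genes fell and 1 rose (21.1%, close to the 22.5% called among all genes). Myc fell by 2.27 ± 0.40 on the log2 scale (adjusted p = 0.00144), Rptor, the mTORC1 scaffold, by 2.08 ± 0.67 (adjusted p = 0.0385) and Eif4ebp2 by 0.96 ± 0.32 (adjusted p = 0.0455), and Eif4ebp1, which binds the cap-binding factor, rose by 2.38 ± 0.33 (adjusted p = 0.000254). Of 12 tested genes of the 5S particle and p53 list, 25% were called, also close to the 22.5% of all genes. Cdkn1a (5.11 ± 0.68, adjusted p = 0.000213) and Phlda3 (2.41 ± 0.62, adjusted p = 0.0127), both p53 targets, rose, and Trp53 fell (-1.12 ± 0.37, adjusted p = 0.0411). Other p53 targets of the list did not pass, and over the 12 genes 7 log2 fold changes were positive and 5 negative. None of the 21 other TOP mRNA genes passed, with a median of -0.05; Eef2 had -0.26 ± 0.19 (adjusted p = 0.369). Of 77 tested mitochondrial ribosomal protein genes 2 rose and 3 fell (6.49%), with a median of -0.11. Within either tissue, no gene of these lists passed between the genotype labels; among biogenesis factors the smallest p belonged to Ncl in spleen (0.76 ± 0.24, adjusted p = 0.674) and Nop2 in tumor (4.15 ± 1.44, adjusted p = 0.584). The lists were chosen with earlier results of these data known, and what links them to the members was not tested.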

How the data were processed

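Raw counts per NCBI gene ID were deposited by the authors as 1 table of whole numbers, 1 column per library; the build was mm10, per the submitters' processing notes, while aligner, counter, annotation and strand setting are not stated in the sources used here. RNA was extracted with a micro column kit and libraries were made by a provider's ultra-low input method, per the labels' protocols. IDs were matched to RefSeq symbols (25275 of 27179; 1904 unmatched). The members and gene lists were chosen with earlier results of these data known.

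CPM of single genes by library, and their ranges, used library totals multiplied by TMM factors (0.7446 to 1.2554, lower in every tumor library than in spleen). Mean CPM over the 14 libraries, CPM per kb, summed markers and the limits for 0 counts used the full totals (4859099 to 10333892 counts). So did the correlations with the summed other members and the SDs within groups. Tests used edgeR 4.0.16 (R 4.3.3), with filterByExpr by group, TMM, the quasi-likelihood F test and Benjamini-Hochberg adjustment over all genes tested: Flox against WT within each tissue from its own libraries, tumor against spleen over 14 libraries with the genotype label as covariate, and their interaction. Il23r was tested by an exact permutation test of the difference in mean CPM, without a log. Log levels for correlations used log2(CPM + 0.5). Shares were summed counts over all counts, with no test. Named genes were the members past the threshold, otherwise up to 5 by smallest p, the 3 highest and lowest members, paralog pairs and members with roles of their own, plus up to 6 called genes or 2 by smallest p of each list; further members are named for their spread or for groups that did not overlap, after their values were seen.

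Transcript lengths and shared 50-base windows came from GENCODE M21, taking the shortest complete principal transcript, and promoter windows from RefSeq GRCm38.p6. The statistics were tested on simulated data. Alternatives were DESeq2 1.42.0, limma 3.58.1 voom with sample weights, other scalings and filters, a replicate block, single tissues or labels, and each library left out. No protein sequence was used here. A member and a marker gene are counted in all totals and not reported here by name.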

Additional observations from a re-analysis of the deposited data

Results flagged for a closer look

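In groups of 4 libraries, a library was singled out where its gap to the nearest other library was larger, as a part of the group's whole range, than Dixon's 95% critical value; groups of 3 were not tested. This gave 11 of 162 values tested (6.79%), and no share of library was among them. For independent, normally distributed values, chance alone flags about 1 in 20 groups. The CPM used here were not on a log scale and members vary together, so that rate is only a rough guide.

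The libraries of replicates 1, 2 and 4 of the tumor WT-labelled group held most of them, each with members far above the other 3 libraries of the group. In replicate 1 these were Rpl7a at 290.8 CPM (29.56 to 40.7 in the others), Rpl10a at 86.53 CPM (20.13 to 27.54), Rps27l at 76.96 CPM (13.23 to 18.86) and Rpl36a at 19.53 CPM (3.8 to 5.164). In replicate 2 they were Rpl27a at 78.54 CPM (25.19 to 33.4), Rps9 at 64.98 CPM (12.7 to 16.61) and Rpl23a at 30.99 CPM (11.77 to 14.26). In replicate 4 they were Rpl22 at 409.6 CPM (44.05 to 75.98) and Rps15 at 262.4 CPM (56.72 to 78.33).

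On the low side, Rpl32 was at 84.87 CPM in tumor WT-labelled replicate 3 (95.9 to 97.95 in the others) and Rpl21 at 26.89 CPM in spleen WT-labelled replicate 4 (53.24 to 56.82).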

How the results depend on the processing

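The median tumor to spleen difference of the members kept its direction and the calls of single members did not. Over 25 alternatives, 70% to 90% of the members tested were negative, with a median of -0.54 (WT-labelled libraries alone) to -0.19 (Flox-labelled alone). The 2 member calls became 13 with DESeq2 (1 higher and 12 lower), which called 30.6% of all genes. They became 3 with voom (23% of all genes) and 3 with retrogene copies added to their parents (22.5%), each 1 higher and 2 lower. With RLE size factors 1 was called, with no filter on low counts 0, and with a 5 CPM minimum in 3 or more libraries 1. Without both WT replicate 2 libraries 1 was called, in WT-labelled or Flox-labelled libraries alone 0, and with 1 library left out 0 to 2. The 2699 genes called became 750 and 847 in the WT-labelled and Flox-labelled libraries alone and 2357 to 2667 with 1 library left out; the first 2 rest on fewer libraries by construction, and the cause of the other changes was not tested.

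Whether same-numbered spleen and tumor libraries came from the same mice is not stated. Their residuals correlated at -0.0298 to 0.0526 over 7 pairs, best with their own number in 2 of 7. Such values gave no sign of pairing but cannot exclude it. Among WT-labelled libraries, Ddx3y stood out in replicate 2 of both tissues. With the replicate block, 2050 genes and 0 members were called between tissues, and the block gave 0 calls in both genotype contrasts.

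For Flox against WT, 0 genes were called in the main analysis. In spleen this became 124 with DESeq2, 1 with the 5 CPM filter, 1 without both WT replicate 2 libraries, 4 with all 14 libraries in 1 fit, and 0 to 1 with 1 library left out. In tumor it became 266 with DESeq2 and 1 with voom, and in the interaction 157 with DESeq2 and 0 to 1 with 1 library left out. No alternative called a member in these contrasts. Turned in sign were the members' tumor median (-0.0068 without TIL WT replicate 3, up to 0.14 with another library left out) and Rps7 in tumor (-0.10 without TIL Flox replicate 3, up to 2.07). The share ratios moved by less than the pooled within-group SD under every alternative run. With 1 library left out they were log2 -0.45 to -0.05 in spleen, 0.16 to 0.29 in tumor and -0.72 to -0.50 between tissues. At this depth Rpl39, Rpl39l, Rpl3l and Rpl10l could not be tested.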
